A study of Mus musculus with 12 samples.

Results

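Chromatin accessibility was examined at 10 genes of the myeloid lineage in mouse B cells that carried or lacked the histone demethylase LSD1, encoded by Kdm1a. The genes were the growth factor receptors Csf1r and Csf3r, the IgG receptor Fcgr1, the lipopolysaccharide coreceptor Cd14, the transcription factors Cebpa, Cebpb and Cebpd, and the granule enzymes Lyz2, Mpo and Elane. A region belonged to a gene when it overlapped that protein-coding gene in mm10 or when that gene lay nearest to it. This rule gave 54 of the 94161 listed regions, spread over 8 of the 10 genes, and it used no accessibility value. Cebpb held 27 regions, Fcgr1 held 11, Csf3r and Cebpd held 4 each, Csf1r and Cd14 held 3 each, and Cebpa and Lyz2 held 1 each. No region was assigned to Mpo or Elane.

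The 12 ATAC-seq libraries formed 4 groups of 3, each library made from 10000 unstimulated splenic cells of female C57BL/6J mice: LSD1-knockout marginal zone B cells (MZB), wild-type MZB, LSD1-knockout follicular B cells (FoB) and wild-type FoB. ATAC-seq uses the Tn5 transposase to place sequencing adapters in open DNA, so read density over a region measures its accessibility and not the expression of a gene. MZB were gated as CD23- CD21hi CD1d+ and FoB as CD23+ CD21mid CD1d- cells. Both gates required B220 and dropped cells positive for CD11b, F4/80, Thy1.1, GL7 or CD93. Of these, CD11b and F4/80 are myeloid surface markers, and the share of myeloid cells left after the sort was not measured here. The sources used here give neither the age of the mice nor the Kdm1a allele and any Cre driver. The labels do not state that the libraries of a group came from separate mice, so the p-values rest on a spread that may be technical.

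Myeloid and B cells both arise from haematopoietic progenitors, and commitment to the B lineage closes most of the myeloid programme. C/EBPα and C/EBPβ, together with PU.1, open and activate genes of macrophages and granulocytes, and forced expression of either C/EBP factor in B cells turns them into macrophage-like cells. In macrophages, Toll-like receptor signals induce C/EBPβ and C/EBPδ, and PU.1 is present in normal B cells as well. LSD1 removes methyl groups from lysine 4 of histone H3, a mark of active enhancers and promoters, and acts mostly in repressive complexes.

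Values are the deposited RPM over the listed regions (rppm), that is, reads scaled to each library's total over those regions. The libraries held 3169966 to 10375328 reads over the regions, and 3 reads corresponded to 0.289 to 0.946 rppm, which is the precision floor of a single library and covers counting error only. The median region held 4.35 to 4.59 rppm in MZB libraries and 3.05 to 3.29 rppm in FoB libraries. Kdm1a held 1 region (chr4:136601890-136603082), at 25.0 rppm in knockout and 23.0 in wild-type MZB (adjusted p = 0.773), and at 20.6 rppm in knockout and 22.8 in wild-type FoB (adjusted p = 0.866). The sources used here do not say which exons of Kdm1a were removed, so that region is no check on the labels. At marginal zone marker genes 52 of 101 regions were higher and 7 lower in wild-type MZB than in wild-type FoB, and at follicular marker genes 1 of 45 was higher and 21 lower, beside 24.2% higher and 11.4% lower over all regions. Cr2, which encodes the CD21 used in the gates, went against its list, with summed means of 295.7 rppm in wild-type MZB and 348.3 rppm in wild-type FoB.

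Of the 8 genes with regions, Cebpb, Cebpa and Fcgr1 have a region over the start site that the RefSeq table gives, and their promoters are shown. The first 2 are the lineage-determining factors. The region that changed in knockout MZB is assigned to Fcgr1 but lies outside the gene and its promoter. Each sequence is the RefSeq GRCm38.p6 (mm10) window from 250 bases before to 50 after the start, 5′ to 3′ on the gene's strand. Capitals mark matches to a C/EBP core motif (TTGCNNA) or the core of the PU.1 site (GGAAGT) on either strand.
Cebpb: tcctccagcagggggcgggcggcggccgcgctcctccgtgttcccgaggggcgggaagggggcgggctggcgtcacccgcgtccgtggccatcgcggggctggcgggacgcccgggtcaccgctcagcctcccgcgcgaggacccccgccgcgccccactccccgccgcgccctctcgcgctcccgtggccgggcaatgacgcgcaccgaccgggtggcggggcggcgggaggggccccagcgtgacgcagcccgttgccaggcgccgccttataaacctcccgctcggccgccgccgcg
Cebpa: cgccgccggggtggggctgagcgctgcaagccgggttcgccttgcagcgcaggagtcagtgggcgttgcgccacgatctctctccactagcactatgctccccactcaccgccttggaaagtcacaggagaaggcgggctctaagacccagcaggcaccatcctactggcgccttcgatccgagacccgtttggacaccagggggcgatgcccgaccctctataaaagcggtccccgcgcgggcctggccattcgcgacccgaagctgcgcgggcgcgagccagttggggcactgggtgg
Fcgr1: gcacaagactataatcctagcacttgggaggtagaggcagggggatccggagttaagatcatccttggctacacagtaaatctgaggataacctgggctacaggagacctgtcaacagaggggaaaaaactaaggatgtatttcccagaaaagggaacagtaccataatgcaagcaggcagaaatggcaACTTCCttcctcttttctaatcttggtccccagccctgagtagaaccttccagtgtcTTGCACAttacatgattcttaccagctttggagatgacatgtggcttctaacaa
The Cebpb window (chr2:167688665-167688964, plus strand) had a GC content of 80.7% with 50 CpG dinucleotides, and the Cebpa window (chr7:35119043-35119342, plus strand) had 67.3% with 29. The Fcgr1 window (chr3:96293920-96294219, minus strand) had 46% with 1 CpG, against medians of 52.7% and 7 over the 32851 promoters in the table. The Cebpb and Cebpa windows held neither motif. The Fcgr1 window held TTGCACA from 4 bases before the start, and ACTTCC, the reverse complement of the PU.1 core, from 61 bases before it. The motifs occur in 37.1% (TTGCNNA) and 23.8% (GGAAGT) of all promoters, so a match or its absence is a description of these letters only.

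Between knockout and wild-type cells, accessibility changed at 1 of the 54 myeloid gene regions in MZB and at 0 in FoB. Over all tested regions the shares that changed were 0.777% in MZB and 0.539% in FoB, so both counts are near the background. The region that changed lies 3′ of Fcgr1, the high-affinity receptor through which macrophages bind IgG, and it was more accessible in knockout MZB. No region of Csf1r, Csf3r, Cd14, Cebpa, Cebpb, Cebpd or Lyz2 passed the threshold in either cell type. A change here means an adjusted p under 0.05 in limma, fitted on log2(rppm + 0.5) over all 89782 regions that passed a filter on low values, all 54 included.

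The Fcgr1 region (chr3:96277513-96278711) starts 4198 bp beyond the 3′ end of the gene, and the next protein-coding gene, H2bc18, lies 7321 bp away. It held 37.3, 43.5 and 38.4 rppm in knockout MZB, against 27.5, 26.1 and 24.9 rppm in wild-type MZB. It held 44.3, 37.9 and 40.7 rppm in knockout FoB, against 33.1, 31.4 and 35.3 rppm in wild-type FoB. In both cell types all 3 knockout libraries lay above all 3 wild-type libraries, and wild-type MZB were the lowest of the 4 groups. The means were 39.8 ± 3.32 rppm in knockout and 26.2 ± 1.33 rppm in wild-type MZB (SD, n = 3 each), a log2 difference of 0.59 ± 0.11 (SE, adjusted p = 0.00241). In FoB they were 40.9 ± 3.20 and 33.3 ± 1.96 rppm in knockout and wild-type cells, a log2 difference of 0.29 ± 0.11 that did not pass (adjusted p = 0.329). The difference between these effects did not pass (0.30 ± 0.15, adjusted p = 0.813). The call in MZB held in all 22 fits tried, with log2 differences of 0.53 to 0.64 and adjusted p of 0.00120 to 0.0357. These fits share most of their data, and those that leave out a FoB library could not alter the log2 difference in MZB.

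The other 10 Fcgr1 regions did not pass in either cell type. The region over the start site (chr3:96293874-96294239) held 3.73, 4.73 and 4.14 rppm in knockout MZB, against 3.24, 2.66 and 4.35 rppm in wild-type MZB, which overlap. Summed over its 11 regions, Fcgr1 had 60.9 ± 3.88 rppm in knockout and 46.0 ± 2.52 rppm in wild-type MZB (SD, n = 3 each), a log2 difference of 0.40 ± 0.08 (adjusted p = 0.00852). The sum was the only one of the 8 gene sums that passed in MZB, beside 2.98% of all 16784 genes, and 0 of 8 passed in FoB, beside 1.4%. Without knockout MZB library 2 its adjusted p was 0.0536, without wild-type MZB library 3 it was 0.0526, and over the 2 regions that overlap the gene it was 0.741. In FoB the sum was 55.7 ± 1.57 rppm in knockout and 45.8 ± 1.61 rppm in wild-type cells (adjusted p = 0.1001), again without overlap between the libraries.

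In MZB, 1 of 54 regions was called in the knockout comparison, against 0.777% of all tested regions (0.502% higher and 0.275% lower). At an unadjusted p under 0.05 there were 7 member regions, against 13.3% of all regions. The knockout libraries lay wholly above wild-type at 1 region (8.13% of all regions) and wholly below at 6 (9.55%), a total of 7 of 54 beside 17.7%. In FoB, 0 of 54 were called against 0.539% of all regions, with 8 at an unadjusted p under 0.05 (9.05% of all) and a smallest adjusted p of 0.213. Knockout FoB lay wholly above wild-type FoB at 6 regions (7.18% of all) and wholly below at 5 (7.51%), in total 11 of 54 beside 14.7%. Both counts are near the shares found over the whole table. The median log2 difference of the 54 regions was -0.01 in MZB and 0.03 in FoB, against -0.02 in each over all regions. A difference between the knockout effects of MZB and FoB passed at 0 member regions, against 0.00111% of all. At an unadjusted p under 0.05 there were 5 of 54, against 6.22% of all regions, and the smallest adjusted p was 0.654.

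**Figure D1:**
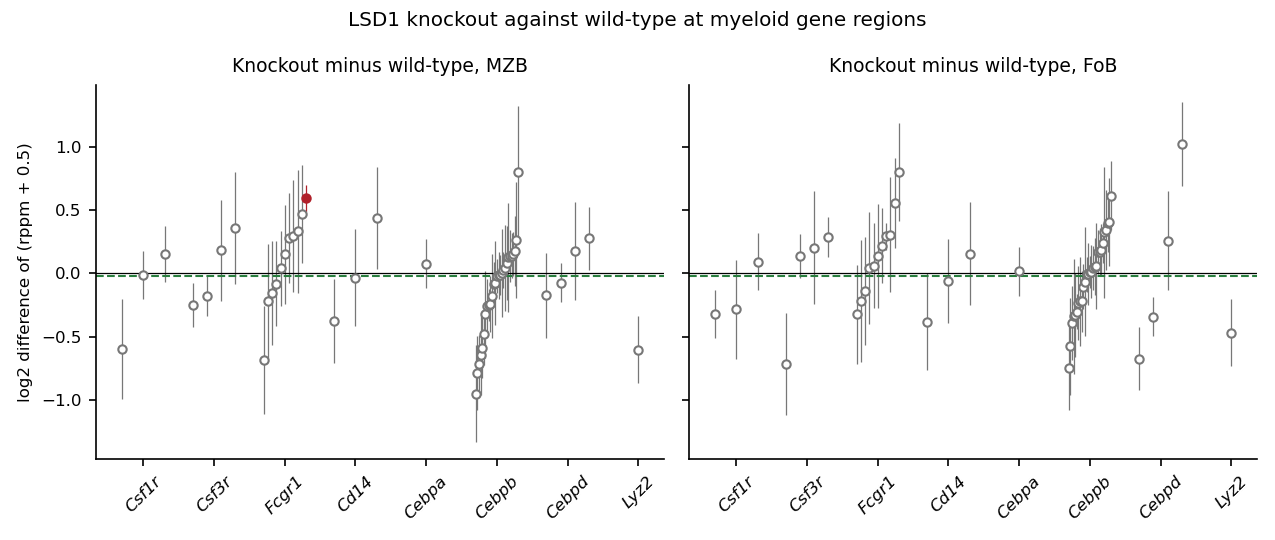
Log2 difference of (rppm + 0.5) between knockout and wild-type libraries for each of the 54 regions, grouped by gene along the horizontal axis, in MZB (left) and FoB (right). Bars are SE, the dashed line is the median of all tested regions, and the 1 filled point is the Fcgr1 region at 0.59 in MZB, the only one with an adjusted p under 0.05.

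Among the regions that did not pass in the knockout comparison, 1 at Cebpb depended on the test. It lies 5228 bp 3′ of the gene, over the long noncoding RNA A530013C23Rik (chr2:167695660-167696164). It held 12.1, 13.9 and 11.8 rppm in knockout MZB, against 21.9, 24.5 and 20.2 rppm in wild-type MZB. All 3 knockout libraries lay below all 3 wild-type libraries, with a log2 difference of -0.79 ± 0.29 (adjusted p = 0.211). Its adjusted p was 0.0402 with a pseudocount of 2, 0.00197 with the MZB groups fitted alone, and 0.00571 and 0.00648 in edgeR's quasi-likelihood test with the deposited totals and with TMM. Over all settings tried its adjusted p ran from 0.00197 to 0.427, and 4 of 22 fits called it. In FoB the region was near the floor, at 1.24, 0.206 and 1.02 rppm in knockout and 0.548, 1.35 and 1.67 rppm in wild-type cells.

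The other 5 regions at which knockout MZB lay wholly below wild-type MZB were 3 more of Cebpb, 1 of Csf1r and the single region of Lyz2. Lyz2, which encodes the lysozyme of macrophages and neutrophils, held 7.23, 5.36 and 5.91 rppm in knockout MZB, against 9.45, 9.30 and 9.95 rppm in wild-type MZB. The difference was -0.60 ± 0.26 on the log2 scale and did not pass (adjusted p = 0.302). The sum over the 27 Cebpb regions was 247.0 ± 6.94 rppm in knockout and 278.2 ± 4.27 rppm in wild-type MZB (SD, n = 3 each). Its libraries did not overlap, and its log2 difference of -0.17 ± 0.05 missed the threshold (adjusted p = 0.0820). The start site region of Cebpb (chr2:167688599-167689425) varied within groups, with 7.70, 18.3 and 20.7 rppm in knockout and 22.4, 23.9 and 19.3 rppm in wild-type MZB (adjusted p = 0.270).

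At Cebpd, which encodes a C/EBP factor induced by inflammatory signals, 3 of 4 regions separated the FoB groups without passing. Knockout FoB lay above at 1 of them and below at 2, and 14.7% of all regions separated these groups. The smallest adjusted p of any member in FoB, 0.213, was that of a region inside the gene and 41 bp from Spidr (chr16:15889022-15889183). It held 0.828, 1.85 and 1.02 rppm in knockout FoB and 0.274, 0.482 and 0.239 rppm in wild-type FoB, from 17 reads and 7 reads in all. The widest region of the gene (chr16:15887008-15888353) ran the other way, with 6.83, 7.21 and 7.12 rppm in knockout FoB and 9.58, 9.06 and 8.60 rppm in wild-type FoB (-0.34 ± 0.15, adjusted p = 0.478).

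**Figure D2:**
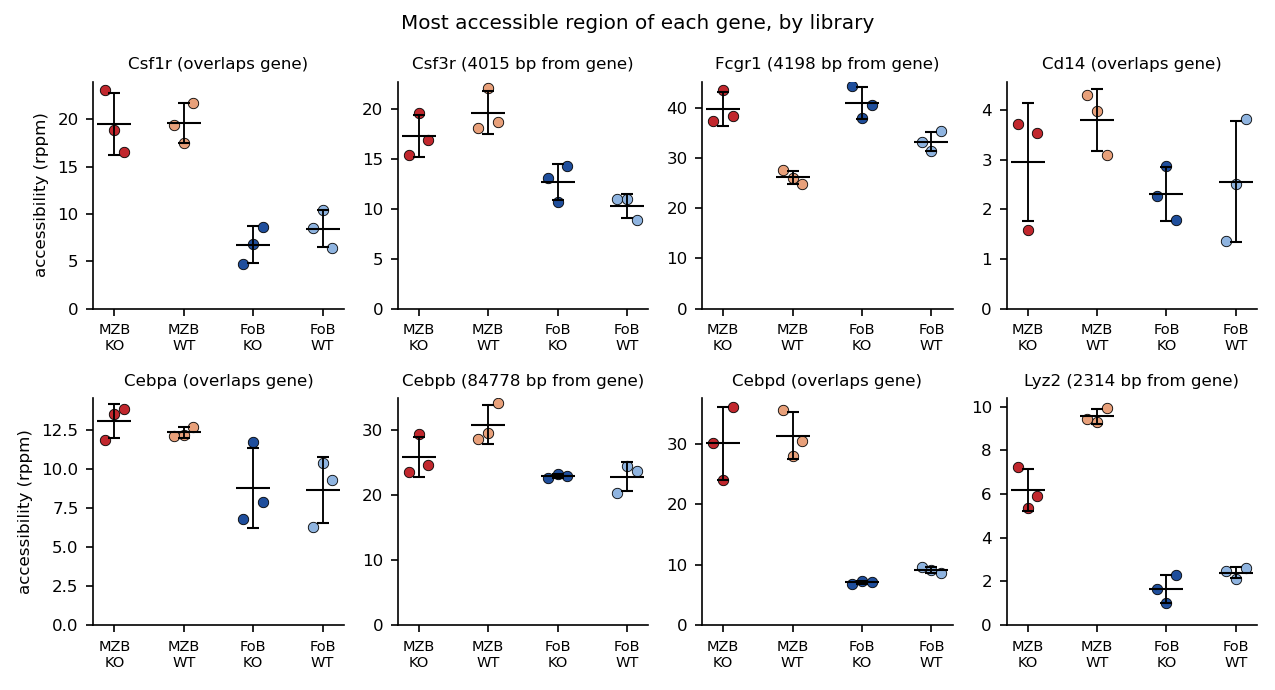
Accessibility in rppm of the region with the highest mean at each of the 8 genes, with 1 point per library, the group mean as a line and SD as bars (n = 3). In the Fcgr1 panel every knockout library lies above every wild-type library of the same cell type. In the Csf1r, Csf3r, Cebpa, Cebpd and Lyz2 panels every MZB library lies above every FoB library, by little at Cebpa (lowest MZB 11.9 rppm, highest FoB 11.7).

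The 2 B cell types differed at many of the same genes. In knockout cells 26 of 54 regions were more accessible in MZB than in FoB and 0 less, and in wild-type cells 27 were more accessible and 1 less. Csf1r, Csf3r, Cd14, Cebpa, Cebpb, Cebpd and Lyz2 were each higher in MZB when their regions were summed, in both genotypes, and Fcgr1 did not pass. These 7 of 8 genes stand beside 21.7% of all genes in knockout and 23.1% in wild-type cells. With quantile normalisation 5 of the 8 passed in each genotype, the sums of Cd14 (adjusted p = 0.197 in knockout and 0.356 in wild-type cells) and Cebpa (adjusted p = 0.409 in knockout and 0.586 in wild-type cells) being lost. Over overlapping regions only, 6 sums remained, because Csf3r and Lyz2 have no region that overlaps the gene. In that set the Cebpb sum lost its call, with 0.14 in knockout (adjusted p = 0.649) and 0.52 in wild-type cells (adjusted p = 0.0526), and the Fcgr1 sum passed. The steepest differences in wild-type sums were those of Cebpd, Lyz2 and Csf1r, with log2 values of 1.90 ± 0.13, 1.80 ± 0.27 and 1.64 ± 0.16 (adjusted p = 1.08e-11, 4.76e-06 and 6.62e-09).

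The background of this comparison is wide. Over all regions 23.2% were higher and 9.47% lower in knockout MZB than in knockout FoB, and the median log2 difference was 0.57 for the 54 regions and 0.14 for all. In wild-type cells 24.2% of all regions were higher and 11.4% lower in MZB, with medians of 0.77 for the 54 regions and 0.18 for all. Higher in both genotypes were 20 regions, which is 76.9% of the 26 in knockout and 74.1% of the 27 in wild-type cells, against 75.8% and 72.6% for all regions. Of the 13 regions that overlap a member gene, 7 were higher in knockout MZB and 8 in wild-type MZB, and of the 41 outside the genes 19 were higher in each genotype.

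The scaling bears on this comparison. With quantile normalisation the median of all regions moved to -0.08 in wild-type cells, and the all-region calls split into 15% higher and 15.4% lower. In knockout cells the all-region split was 13.6% higher and 12.1% lower. The members then had 17 higher and 0 lower in knockout cells, with a median of 0.33, and 19 higher and 0 lower in wild-type cells, with a median of 0.42. With edgeR and TMM the all-region split was 18.4% higher and 16.4% lower in knockout cells, and 20.2% higher and 19% lower in wild-type cells. The members then had 22 higher in knockout cells and 25 higher and 1 lower in wild-type cells. Under both scalings the calls of the members leaned to MZB, while those over all regions were nearly even. Cebpb alone held 27 of the 54 member regions. At other myeloid genes listed below, limma on the deposited scaling called 78 of 309 regions higher (25.2%) and 34 lower (11%) in wild-type MZB. In knockout MZB it called 74 higher (23.9%) and 16 lower (5.18%), each against FoB of the same genotype. These shares higher were near those of all regions, 24.2% in wild-type and 23.2% in knockout cells.

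Csf1r is the receptor for M-CSF, on which macrophages depend, and all 3 of its regions lie inside the gene. The region with the highest mean (chr18:61108345-61108967) held 23.1, 18.9 and 16.5 rppm in knockout MZB, against 4.76, 6.80 and 8.64 rppm in knockout FoB. It held 19.4, 17.5 and 21.8 rppm in wild-type MZB and 8.49, 10.4 and 6.45 rppm in wild-type FoB. Every MZB library exceeded every FoB library, with log2 differences of 1.49 ± 0.19 in knockout and 1.19 ± 0.19 in wild-type cells (adjusted p = 9.28e-08 and 5.16e-06). Another region of the gene (chr18:61113112-61113593) differed by 2.09 ± 0.22 in knockout and 2.03 ± 0.22 in wild-type cells (adjusted p = 2.72e-09 and 4.27e-09). The third, 161 bp wide, was near the floor in FoB and differed by 1.83 ± 0.39 and 2.15 ± 0.39 in knockout and wild-type cells.

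Csf3r, the receptor for G-CSF on neutrophils, had no region inside the gene. A region 1694 bp from the gene is assigned to Mrps15, the gene next to it, and no comparison of it passed (27.2 ± 4.10 and 27.6 ± 1.997 rppm in knockout and wild-type MZB, 28.1 ± 3.15 and 26.8 ± 2.74 rppm in knockout and wild-type FoB, SD, n = 3 each). The nearest Csf3r region lies 4015 bp upstream (chr4:126018934-126019426). It held 15.4, 19.6 and 16.8 rppm in knockout MZB, against 13.0, 10.7 and 14.2 rppm in knockout FoB. In wild-type cells it held 18.1, 22.1 and 18.7 rppm in MZB and 10.95, 10.99 and 8.83 rppm in FoB. MZB lay above FoB in both genotypes, by 0.44 ± 0.16 in knockout and 0.90 ± 0.16 in wild-type cells (adjusted p = 0.0299 and 1.88e-05). The call in knockout cells was lost without knockout MZB library 2 (adjusted p = 0.139), knockout MZB library 3 (adjusted p = 0.0559) or knockout FoB library 2 (0.162), and with quantile normalisation (0.133), TMM (0.193) and DESeq2 (0.349). A region 60258 bp upstream differed by 0.46 ± 0.17 in knockout and 0.85 ± 0.17 in wild-type cells (adjusted p = 0.0360 and 0.000155). Its call in knockout cells was lost without knockout MZB library 3 (adjusted p = 0.199) or knockout FoB library 3 (0.203), with the compared groups alone (0.0528), with quantile normalisation (0.270), TMM (0.220) and DESeq2 (0.370). The farthest region, 102788 bp upstream, held 17 reads in knockout MZB and 2 in knockout FoB, and 13 reads in wild-type MZB and 1 in wild-type FoB.

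The Fcgr1 regions went both ways, and the most accessible one was lower in wild-type MZB than in wild-type FoB. The region 4198 bp beyond the gene differed by -0.04 ± 0.11 between knockout MZB and FoB (adjusted p = 0.808) and by -0.34 ± 0.11 between wild-type MZB and FoB (adjusted p = 0.0130). The wild-type call was lost with quantile normalisation (adjusted p = 0.111), without wild-type MZB library 3 (0.0511) and without wild-type FoB library 3 (0.0688). The region over the start site went the other way in wild-type cells, at 3.24, 2.66 and 4.35 rppm in MZB and 0.548, 2.51 and 1.43 rppm in FoB (1.08 ± 0.36, adjusted p = 0.0164). It too was lost without wild-type MZB library 3 (adjusted p = 0.0861) or wild-type FoB library 1 (0.153), and with quantile normalisation (0.210), edgeR with the deposited totals (0.0704), TMM (0.151) and DESeq2 (0.223). A weaker region 7282 bp upstream (25 reads in wild-type MZB and 11 in wild-type FoB) differed by 1.43 ± 0.45 (adjusted p = 0.0125), and this was lost without wild-type MZB library 1 (adjusted p = 0.106) or wild-type FoB library 3 (0.132), with quantile normalisation (0.105) and with DESeq2 (0.0567). Summed, the 11 regions did not pass between MZB and FoB in knockout (0.13 ± 0.08, adjusted p = 0.226) or wild-type cells (0.01 ± 0.08, adjusted p = 0.959). Over the 2 regions that overlap the gene the sum was higher in MZB, by 0.78 in both knockout (adjusted p = 0.0382) and wild-type cells (adjusted p = 0.0327).

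Cd14, the coreceptor that passes lipopolysaccharide to TLR4, had 3 weakly accessible regions inside the gene. Their sum was 8.62 ± 0.642 rppm in knockout MZB and 4.63 ± 1.38 rppm in knockout FoB, against 9.28 ± 3.19 and 5.15 ± 0.795 rppm in wild-type MZB and FoB (SD, n = 3 each). The sum was higher in MZB by 0.86 ± 0.26 in knockout (adjusted p = 0.00832) and 0.74 ± 0.26 in wild-type cells (adjusted p = 0.0194). The wild-type groups overlapped, and that call was lost without wild-type MZB library 1 (adjusted p = 0.114), wild-type MZB library 2 (0.0997) or wild-type FoB library 1 (0.0661). Only the middle region (chr18:36725928-36726276) passed on its own, in knockout cells (1.21 ± 0.38, adjusted p = 0.0131), and it did not without knockout MZB library 3 (adjusted p = 0.0527) or knockout FoB library 3 (0.0781), nor with quantile normalisation (0.153) or DESeq2 (0.102).

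The 3 C/EBP genes differed between MZB and FoB to unequal degrees. Cebpd had all 4 regions higher in MZB in both genotypes. The region over the gene (chr16:15887008-15888353) held 30.1, 24.0 and 36.1 rppm in knockout MZB, against 6.83, 7.21 and 7.12 rppm in knockout FoB. In wild-type cells it held 35.6, 27.9 and 30.5 rppm in MZB and 9.58, 9.06 and 8.60 rppm in FoB. Every MZB library lay far above every FoB library, and the log2 differences were 1.997 ± 0.15 in knockout and 1.73 ± 0.15 in wild-type cells (adjusted p = 9.21e-13 and 2.73e-11). A region 367 bp from the gene, and 2305 bp from Spidr, differed by 2.35 ± 0.25 and 1.39 ± 0.25 in knockout and wild-type cells (adjusted p = 2.38e-09 and 3.09e-05). The other two, from 7 to 59 reads per group, differed by 1.65 to 2.19 in knockout and 2.27 to 2.85 in wild-type cells.

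Cebpb had 27 regions out to 115183 bp from the gene. Of these, 12 were higher in knockout MZB and 13 in wild-type MZB than in FoB, with 0 lower. Over all regions 23.2% were higher in knockout MZB and 24.2% in wild-type MZB. The steepest was the region over A530013C23Rik, 5228 bp from the gene, given above for MZB knockout and wild-type libraries. Its log2 differences between MZB and FoB were 3.41 ± 0.29 in knockout and 3.81 ± 0.29 in wild-type cells (adjusted p = 1.63e-11 and 9.67e-13), from 136 reads against 11 and from 238 reads against 23. A region 10487 bp from the gene, on its 5′ side, differed by 1.89 ± 0.35 and 2.63 ± 0.35, and a region 57811 bp on its 3′ side by 0.92 ± 0.18 and 0.90 ± 0.18, in knockout and wild-type cells (adjusted p from 1.78e-07 to 0.000111). Regions at 33260 and 103265 bp on the 3′ side also passed in both genotypes, the second not with quantile normalisation in wild-type cells (adjusted p = 0.122). A further 7 regions were higher in knockout MZB, with log2 differences of 0.52 to 1.56, and 7 in wild-type MZB, with 0.91 to 1.53, of which 3 were the same regions.

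At the start site and at the most accessible Cebpb region the differences were smaller. The start site region did not differ between MZB and FoB in knockout (-0.01 ± 0.24, adjusted p = 0.975) or wild-type cells (0.35 ± 0.24, adjusted p = 0.268). The region with the highest mean, 84778 bp from the gene and over the noncoding RNA Gm32287 (chr2:167775210-167775777), held 23.6, 29.3 and 24.5 rppm in knockout MZB, against 22.6, 23.3 and 22.9 rppm in knockout FoB. It held 28.6, 29.5 and 34.2 rppm in wild-type MZB and 20.3, 24.5 and 23.6 rppm in wild-type FoB. The difference did not pass in knockout cells (0.16 ± 0.12, adjusted p = 0.343) and passed in wild-type cells (0.43 ± 0.12, adjusted p = 0.00690). The wild-type call was lost without wild-type MZB library 3 (adjusted p = 0.0530) or wild-type FoB library 1 (0.0502), with TMM (0.134) and with DESeq2 (0.258).

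Cebpa, the factor without which granulocytes do not form, had a single region over its start site (chr7:35118402-35119422). It held 11.9, 13.6 and 13.9 rppm in knockout MZB, against 6.83, 11.7 and 7.88 rppm in knockout FoB. It held 12.1, 12.2 and 12.8 rppm in wild-type MZB and 6.30, 10.4 and 9.31 rppm in wild-type FoB. MZB lay above FoB without overlap in both genotypes, by 0.58 ± 0.19 in knockout and 0.52 ± 0.19 in wild-type cells (adjusted p = 0.0180 and 0.0325). The call did not hold with quantile normalisation, TMM or DESeq2 in either genotype (adjusted p = 0.127 to 0.415), nor in wild-type cells in edgeR with the deposited totals (0.0729). It was lost in knockout cells without knockout MZB library 2 (adjusted p = 0.0541), knockout MZB library 3 (0.0628), knockout FoB library 1 (0.127) or knockout FoB library 3 (0.0668). In wild-type cells it was lost without any 1 of the 3 MZB libraries (adjusted p = 0.0640 to 0.0824) or without FoB library 1 (0.239).

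Among the granule genes, the single Lyz2 region (chr10:117274597-117275227) lies 2314 bp beyond the 3′ end of the gene, and its next gene is the near-identical paralog Lyz1, 12568 bp away. It held 1.66, 1.03 and 2.29 rppm in knockout FoB and 2.46, 2.12 and 2.63 rppm in wild-type FoB, far below the MZB values given above. The log2 differences between MZB and FoB were 1.66 ± 0.26 in knockout and 1.80 ± 0.26 in wild-type cells (adjusted p = 5.32e-06 and 1.22e-06). Mpo, the myeloperoxidase of neutrophil granules, and Elane, the neutrophil elastase, had no region of their own. The nearest listed regions lay 3887 bp from Mpo, assigned to Lpo, and 2270 bp from Elane, assigned to Prtn3, at group means of 2.69 to 4.13 and 2.16 to 3.05 rppm, and neither differed in any comparison (smallest adjusted p = 0.236 and 0.356).

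**Figure D3:**
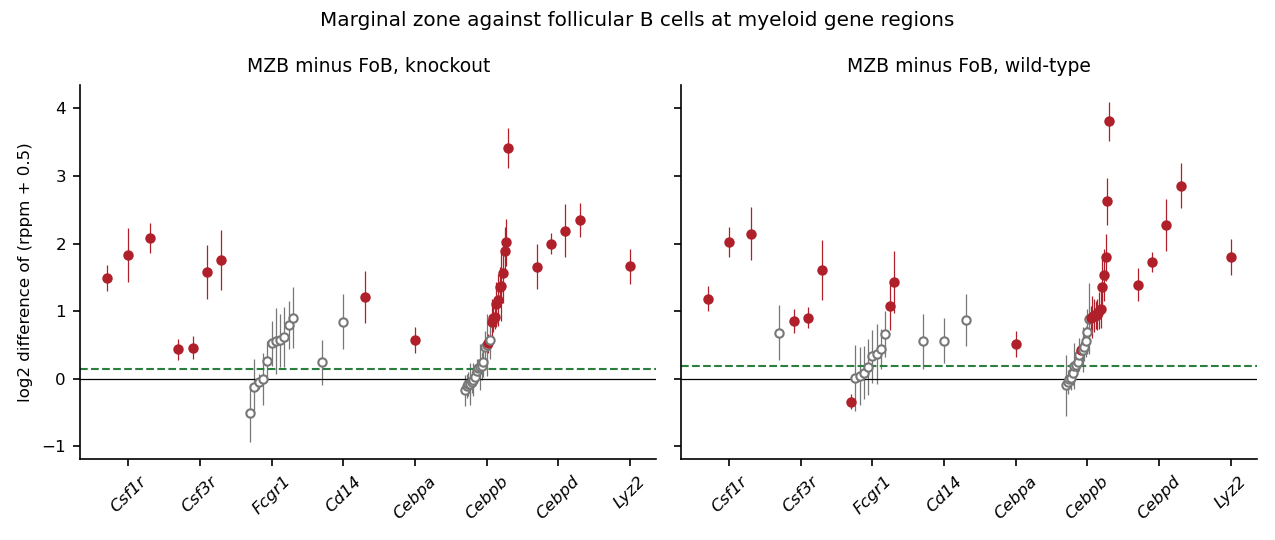
Log2 difference of (rppm + 0.5) between MZB and FoB libraries for each of the 54 regions, grouped by gene, in knockout (left) and wild-type (right) cells. Filled points have an adjusted p under 0.05 and bars are SE. All Csf1r and Cebpd regions lie well above the dashed median of all regions, which is 0.14 in knockout and 0.18 in wild-type cells, while Fcgr1 holds the 1 filled point below 0.

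Divided by the length that the regions cover, the genes could be compared with each other. Wild-type MZB held 30.7 ± 3.09 rppm per kb at Csf1r, 25.2 ± 0.386 at Cebpb, 24.6 ± 0.746 at Csf3r, 21.2 ± 2.02 at Cebpd, 15.2 ± 0.540 at Lyz2, 12.6 ± 0.690 at Fcgr1, 12.1 ± 0.321 at Cebpa and 8.79 ± 3.03 at Cd14 (SD, n = 3). The differences between Cebpb and Csf3r and between Fcgr1 and Cebpa were smaller than the larger SD of each pair. In wild-type FoB the order was led by Cebpb (16.7 ± 0.492 rppm per kb), Csf3r (12.7 ± 0.957) and Fcgr1 (12.5 ± 0.442), with Cebpd at 5.53 ± 0.262, Cd14 at 4.88 ± 0.754 and Lyz2 at 3.82 ± 0.410.

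**Figure D4:**
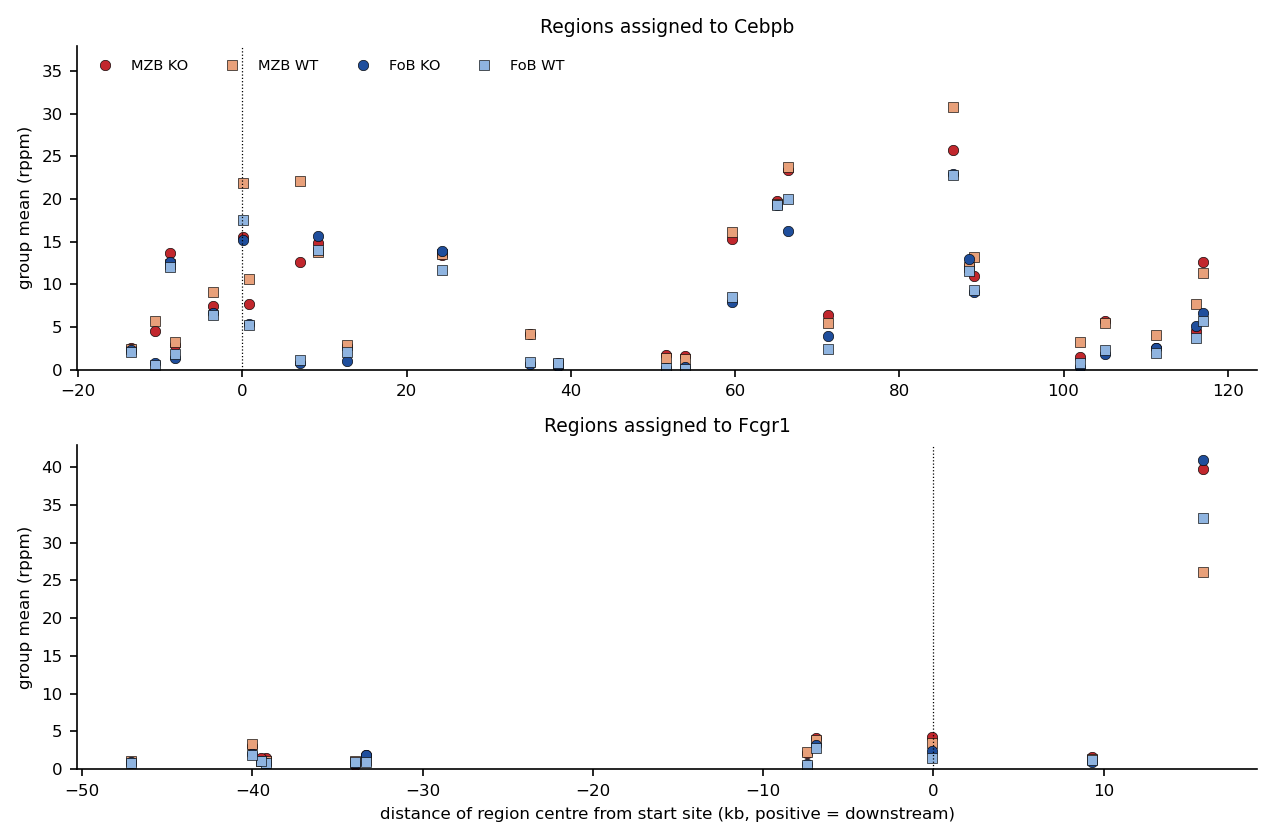
Group means in rppm of the 27 Cebpb regions (top) and the 11 Fcgr1 regions (bottom) against the distance of the region's centre from the start site in kb, with positive values downstream. At Cebpb the largest gap between MZB and FoB stands 6997 bp downstream, and at Fcgr1 the region 15857 bp downstream is the only one above 5 rppm.

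The 54 myeloid regions were somewhat wider and lower than the table as a whole. They had a median width of 379.5 bp and a median mean level of 3.25 rppm, against 339 bp and 3.87 rppm over all regions. Only 24.1% of them overlapped a gene, against 57.3% of all regions, and 12 of the 54 overlapped a noncoding gene, 8 of them at Cebpb. The regions at other genes whose pattern over the 12 libraries was most like that of the Fcgr1 3′ region were assigned to Slc4a3, Mrln, Arhgap31, Fth1 and Syde1, with Pearson r of 0.969, 0.960, 0.936, 0.936 and 0.935. These were chosen for their likeness, share all 12 libraries with the Fcgr1 region, and are given as a description.

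Other genes of the myeloid lineage were followed as a list of 43 that leaves out the 10 members. Of these, 37 had 318 regions in all, and none was listed at the granule and secreted protein genes Camp, Ctsg, Lcn2, Ngp and S100a8 or at the oxidase gene Cybb. In knockout MZB 2 of 154 tested regions at receptor and surface genes were higher and 1 lower, 4 of 141 at transcription factor genes were higher and 0 lower, and 0 of 14 at granule genes were called. In knockout FoB the counts were 1, 1 and 0 higher and 0 lower. The shares higher in knockout FoB were 0.649% at receptor and surface genes and 0.709% at transcription factor genes, beside 0.32% of all regions higher and 0.219% lower. The shares higher in knockout MZB were 1.3% at receptor and surface genes and 2.84% at transcription factor genes, beside 0.502% of all regions.

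The lower region lies inside Marco (chr1:120501489-120501967), the scavenger receptor of marginal zone macrophages. It held 9.33, 12.9 and 13.6 rppm in knockout MZB, against 28.1, 30.3 and 23.3 rppm in wild-type MZB (-1.16 ± 0.21, adjusted p = 0.00198). All 3 knockout values lay below all 3 wild-type values. The regions that rose in knockout MZB were assigned to Cebpe (0.88 ± 0.20), Irf8 (0.76 ± 0.19), Adgre1 (0.48 ± 0.11), Csf2ra (0.40 ± 0.08) and Runx1 (1.34 ± 0.32 and 0.76 ± 0.16), with adjusted p of 0.00591 to 0.0428. Only the Csf2ra region overlaps its gene. The others lie 1816 bp from Cebpe, 7786 bp from Irf8, 11170 bp from Adgre1, and 120506 and 193874 bp from Runx1. The nearer Runx1 region, with the log2 difference of 1.34, was near the floor in wild-type MZB, at 1.89, 0.532 and 0.622 rppm. It held 2.80, 3.79 and 2.66 rppm in knockout MZB. Cebpe drives late granulocyte maturation, Irf8 favours monocytes and dendritic cells, Adgre1 encodes F4/80, Csf2ra is a GM-CSF receptor chain, and Runx1 is a factor of haematopoietic stem cells and many lineages. In knockout FoB a region of Trem1 (0.92 ± 0.19, adjusted p = 0.00842), an activating receptor of neutrophils and monocytes, and one 284480 bp from Klf4 (0.65 ± 0.15, adjusted p = 0.0251), a monocyte factor, were higher.

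Marker genes of other cell types that a B cell sort might contain were summed per library beside these results. The 37 other myeloid genes summed to 2985 to 3055 rppm in knockout MZB and 2803 to 2866 in wild-type MZB, and to 2883 to 2962 in knockout FoB and 2819 to 2860 in wild-type FoB. Both knockout groups thus lay above their wild-type groups, while wild-type MZB and FoB overlapped. Dendritic cell markers (4 of 4 genes with regions) gave 507 to 522 rppm in knockout MZB and 488 to 492 in wild-type MZB, and 449.8 to 479 in knockout FoB and 425 to 435 in wild-type FoB. NK cell markers (4 of 4) gave 327 to 368 and 309 to 320.1 rppm in knockout and wild-type MZB, and 372 to 401 and 347 to 388 rppm in knockout and wild-type FoB. T cell markers had regions at 2 of 6 genes, with none at Cd3g, Cd4, Cd8a or Trac, and gave 44.8 to 53.6 and 42.6 to 48.1 rppm in knockout and wild-type MZB, and 43.7 to 48.4 and 36.4 to 43.9 rppm in knockout and wild-type FoB. Erythroid and megakaryocyte markers (5 of 5) overlapped in MZB, at 157 to 161 rppm in knockout and 149 to 159.5 in wild-type cells. In FoB they ran opposite to the myeloid and dendritic cell sums, at 133 to 142 rppm in knockout and 148 to 152 in wild-type cells, without overlap. The B cell identity genes gave 683 to 776 and 656 to 721 rppm in knockout and wild-type MZB, and 766 to 820.3 and 805 to 843 rppm in knockout and wild-type FoB. The part of these levels in the Fcgr1 result and in the differences between MZB and FoB was not tested. In bulk libraries a few cells with an open region and many cells with a partly open one cannot be told apart.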

How the data were processed

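Open chromatin was assayed in 12 ATAC-seq libraries, 3 for each of 4 groups. The submitters' processing notes name Bowtie 1.1.1, MACS2 and the build mm10. The authors deposited 1 table of 94161 regions in RPM over those regions (rppm). The sources used here give no read filters, peak merging or shift for Tn5 insertion, and coordinates are printed as deposited. All values were whole multiples of 1 read (tolerance 0.01), so reads were recovered.

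Regions were assigned to overlapping or nearest genes among 21896 protein-coding genes of a RefSeq table (GRCm38.p6, the assembly of mm10). That table gives no exons. Start sites were found for 7 of the 10 genes in the RefSeq promoter table.

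A region was tested if 3 libraries or more held 1 rppm or more (89782 kept, 4379 removed), with limma 3.58.1 in R 4.3.3 on log2(rppm + 0.5). One coefficient was fitted per group, with eBayes and a mean-variance trend. All tests were two-sided, and p-values were adjusted by Benjamini-Hochberg over all tested regions, or over 16784 genes for sums, and a threshold of 0.05. Fold changes on this scale understate low regions. The test was checked on simulated data. Alternatives were other pseudocounts, no filter, quantile normalisation, the compared groups alone, a replicate block, edgeR 4.0.16 and DESeq2 1.42.0 on recovered reads, leaving out each library, overlapping regions only and regions within 50000 bp. Named were the called regions of each gene (at most 5 for a gene), its highest region and the one nearest its start. The genes and lists were chosen with earlier results of these data known.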

Additional observations from a re-analysis of the deposited data

How the results depend on the processing

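The Fcgr1 call in MZB was kept in all 22 fits. The count of member regions called between knockout and wild-type MZB was 1 and became 2 with a pseudocount of 2, with the compared groups alone and in edgeR with either scaling, through 1 Cebpb region. It was 0 over overlapping regions only, a set that leaves out the Fcgr1 region by construction. The count of gene sums called in that comparison was 1 and became 0 over overlapping regions only, and was 0 to 1 with 1 library left out. In knockout FoB and for the difference of the knockout effects, 0 regions were called in every fit. The 26 regions called between knockout MZB and FoB became 7 over overlapping regions and 17 within 50000 bp, since fewer regions enter, and 17 with quantile normalisation and with DESeq2, for which the cause was not tested. The 28 called in wild-type cells became 8 and 18 in those smaller sets. Leaving out 1 library gave 20 to 26 regions in knockout and 26 to 29 in wild-type cells, and 6 to 7 and 5 to 7 gene sums. No result reversed. Of the 41 calls at named regions, 9 were lost with quantile normalisation, 8 with DESeq2 and 6 with TMM, 2 in edgeR with the deposited totals and 1 with the compared groups alone. None was lost with the other pseudocounts, without the filter or with the replicate block. Leaving out 1 library each time lost 23 and kept 469 of these calls. Over all regions the knockout calls in MZB numbered 698, and 432 with a pseudocount of 0.1, 1169 with 2, 1254 with quantile normalisation and 168 with DESeq2 (315 to 879 with 1 library left out). In FoB they numbered 484, and 309 with quantile normalisation, 212 with the compared groups alone and 150 with DESeq2 (286 to 501 with 1 library left out). Correlations of same-numbered libraries, taken on deviations from group means, ran from -0.0934 to 0.134, while a pair with different numbers reached 0.195. They gave no sign that the replicate numbers pair the libraries. They cannot exclude pairing, because such deviations sum to 0 within each group. With the replicate block, the counts of called regions were 1 in MZB and 0 in FoB for the knockout, and 25 and 29 for MZB against FoB in knockout and wild-type cells. Depth limits the regions near the floor of 3 reads, such as the farthest Csf3r region.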
